A study of Mus musculus with 7 samples.

Results

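The milk protein genes were followed here as 10 genes, namely the caseins Csn1s1, Csn1s2a, Csn1s2b, Csn2 and Csn3, the whey proteins Wap and Lalba, the mucin Glycam1, and Xdh and Btn1a1 of the milk fat globule. Their probes were those non-control probes that carry one of these names in the scanner files, and they numbered 22 of 56605 on the array. A probe was tested where every array of one genotype, or of both, gave a Cy5 signal well above background, which held for 18 of the 22 and for 34289 of all probes. Every gene kept at least 1 tested probe, the brightest of which stood for it, and the 10 genes are 10 of 22477 gene names with a tested probe. The probes left out were 3 of Csn1s2b, of which 1 was dim on every array, and 1 of Xdh.

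The mammary glands came from 3 wild-type mice and 4 PRA transgenic mice, with 1 animal per array. All animals were nulliparous FVB females of 20 to 25 weeks taken at diestrus, and from each a single abdominal gland was frozen after its lymph nodes had been cut out. The PRA transgenics carried an additional gene for the A form of the progesterone receptor under a GAL-4 responsive promoter, together with a GAL-4 gene driven by a cytomegalovirus promoter, which is not restricted to the mammary epithelium, and the labels call their glands preneoplastic. Gland RNA was labeled with Cy5 and hybridized with a Cy3-labeled reference, pooled RNA of 11 mouse cell lines that was the same on every array.

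Milk proteins are made by the alveolar cells of the mammary epithelium. Prolactin acts through its receptor and the transcription factor STAT5, together with ELF5, to switch their genes on in pregnancy, and in a nulliparous gland their expression is far lower than in lactation. In whole glands fewer such cells and less RNA per cell cannot be told apart.

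The quantity called the level below is log2 of the Cy5 intensity minus the 75th percentile of log2 Cy5 on that array, and the ratio is the log2 ratio of Cy5 to Cy3. Probes well above background in Cy5 made up 62.7% to 66.2% on wild-type arrays and 56.7% to 60.2% on PRA transgenic arrays. In Cy3 they made up 53.2% to 54.0% and 47.2% to 50.6%. Probe A_52_P413429 of Csn1s2b, dim on every array, had levels of -7.14 to -6.86 in wild-type and -6.50 to -5.64 in PRA transgenic glands. Its Cy3 signal, scaled likewise, was -6.54 to -6.45 and -6.03 to -5.57. Detection and this dim value thus differed between the genotypes. The 7 arrays shared 1 slide, on which wild-type glands took row 1 and PRA transgenic glands row 2, and the effect of the row cannot be told apart from that of the genotype. The keratins Krt8 and Krt18, which define luminal epithelium, were well above background on all arrays, and the mean level of the luminal markers (8 of 9 tested, Prom1 not) was 2.16 to 2.97 in wild-type and 2.12 to 2.86 in PRA transgenic glands. The mean level of skeletal muscle markers (7 of 8 tested) was 0.77, -2.26 and 2.44 in wild-type glands 1 to 3 and -2.09, -2.19, -2.16 and 1.94 in PRA transgenic glands 1 to 4.

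The caseins differed far more between animals of one genotype than between genotypes. Csn1s1, which encodes alpha-S1-casein, is represented by probe A_51_P491378 at chr5:88111332-88111391 of mm9, plus strand. Its level was 3.50, 5.62 and 8.79 in wild-type glands 1 to 3 and 3.88, 7.70, 4.28 and 6.80 in PRA transgenic glands 1 to 4, a span of 39.1-fold. Wild-type 3 was the highest gland and wild-type 1 the lowest, so the wild-type group alone enclosed all PRA transgenic values. Csn2, which encodes beta-casein, a major casein of mouse milk, followed the same course (probe A_51_P446395, chr5:88121767-88121826, minus strand). Its level was 2.81, 5.96 and 8.63 in wild-type glands and 4.18, 7.71, 3.66 and 6.20 in PRA transgenic glands, a span of 56.4-fold.

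Csn1s2a, an alpha-S2-like casein (A_51_P422143, chr5:88217726-88217785, plus strand), had levels of 3.33, 5.60 and 9.06 in wild-type and 4.79, 8.08, 2.05 and 5.87 in PRA transgenic glands, a span of 128-fold. Its lowest gland was PRA transgenic 3 and its highest again wild-type 3. Csn3 encodes kappa-casein, which caps and stabilizes the casein micelle and is not one of the calcium-sensitive caseins. Its level (A_51_P227275, chr5:88361449-88361508, plus strand) was 6.90, 7.24 and 8.83 in wild-type and 6.62, 7.64, 6.42 and 7.57 in PRA transgenic glands. Csn3 kept much of the order of the other caseins but spanned 5.35-fold. Its other tested probes spanned 7.42-fold and 2.47-fold, also with wild-type 3 highest on both.

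Csn1s2b, a second alpha-S2-like casein (A_66_P130635, chr5:88253366-88253425, plus strand), did not follow that order. Its level was -3.57, -3.52 and 0.23 in wild-type and -0.24, -0.98, -2.57 and -2.58 in PRA transgenic glands. Wild-type 3, PRA transgenic 1 and PRA transgenic 2 were the high glands, whereas PRA transgenic 4, high for the other caseins, was low.

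The sequence upstream of the genes is shown because the caseins moved together from gland to gland and STAT5 binds near casein promoters. RefSeq promoters of GRCm38.p6 matched 6 of the 10 genes, and the window from 250 bases before to 30 bases after the start was searched for TTCNNNGAA, the core of the STAT5 element, which reads the same on both strands. It occurred once in 4 of the 6 (Csn1s1, Csn2, Csn1s2a and Glycam1) and not in Wap or Lalba, and 7.83% of all 32851 promoters in the table hold it. The 3 caseins with a promoter and, for contrast, Glycam1 and Wap are printed 5′ to 3′ on the strand of the gene, with the match in capitals. The first base of the match lies at position -100 in Csn1s1 (chr5:87665958-87666237, plus strand), at -93 in Csn2 (chr5:87699396-87699675, minus strand), at 21 in Csn1s2a (chr5:87774200-87774479, plus strand) and at -145 in Glycam1 (chr15:103565052-103565331, minus strand). The Wap window is chr11:6638620-6638899, minus strand.
Csn1s1: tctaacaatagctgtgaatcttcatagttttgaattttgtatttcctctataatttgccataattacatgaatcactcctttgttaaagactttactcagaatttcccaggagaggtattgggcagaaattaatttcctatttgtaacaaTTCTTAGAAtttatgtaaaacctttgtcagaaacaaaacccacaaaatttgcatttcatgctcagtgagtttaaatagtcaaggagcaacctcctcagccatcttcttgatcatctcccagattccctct
Csn2: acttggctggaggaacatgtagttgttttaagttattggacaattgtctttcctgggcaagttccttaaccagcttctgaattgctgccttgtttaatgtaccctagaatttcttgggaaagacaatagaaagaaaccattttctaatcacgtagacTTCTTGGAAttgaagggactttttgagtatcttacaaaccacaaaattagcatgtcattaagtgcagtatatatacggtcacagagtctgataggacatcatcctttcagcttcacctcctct
Csn1s2a: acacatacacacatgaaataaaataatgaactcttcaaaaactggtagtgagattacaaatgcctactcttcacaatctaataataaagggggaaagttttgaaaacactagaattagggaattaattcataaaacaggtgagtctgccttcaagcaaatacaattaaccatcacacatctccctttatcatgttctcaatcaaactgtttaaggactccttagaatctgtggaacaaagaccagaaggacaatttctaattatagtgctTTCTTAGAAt
Glycam1: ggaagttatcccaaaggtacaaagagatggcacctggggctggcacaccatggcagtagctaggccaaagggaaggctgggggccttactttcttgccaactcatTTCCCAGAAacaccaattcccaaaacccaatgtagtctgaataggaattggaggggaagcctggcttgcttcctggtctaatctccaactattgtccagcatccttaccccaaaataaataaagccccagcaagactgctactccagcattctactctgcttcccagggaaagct
Wap: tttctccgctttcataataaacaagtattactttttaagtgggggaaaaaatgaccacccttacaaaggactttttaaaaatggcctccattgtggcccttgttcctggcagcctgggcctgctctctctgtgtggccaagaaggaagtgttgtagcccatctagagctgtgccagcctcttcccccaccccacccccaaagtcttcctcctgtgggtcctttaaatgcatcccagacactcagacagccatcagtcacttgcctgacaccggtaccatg
These windows are on another build than the probe positions, and a match is a run of letters, not a measured binding site. Promoters of Csn1s2b, Csn3, Xdh and Btn1a1 were not used here.

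Wap encodes whey acidic protein, a late marker of alveolar differentiation, and it spread over a wider range than the caseins. Its level (A_66_P103863, chr11:6535617-6536756, minus strand) was -0.10, -2.25 and 5.42 in wild-type and 3.37, 2.17, -4.50 and -1.90 in PRA transgenic glands. In PRA transgenic 3 the probe was not well above background, and over the other 6 glands the level spanned 204-fold. Wild-type 3 and PRA transgenic 1 and 2 were high, the same 3 glands that were high for Csn1s2b. The other Wap probe gave the same order of high glands, with 5.28 in wild-type 3, 3.27 in PRA transgenic 1 and 2.00 in PRA transgenic 2.

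Lalba encodes alpha-lactalbumin, the subunit that makes galactosyltransferase synthesize lactose. Its level (A_55_P2150540, chr15:98310831-98310890, minus strand) was 2.35, 5.44 and 4.98 in wild-type and 2.61, 2.48, 0.91 and 3.93 in PRA transgenic glands, a span of 23.1-fold. Lalba was highest in wild-type 2, a gland in which Wap was low, and PRA transgenic 2, a gland with high caseins, had only the fifth level of Lalba. The groups overlapped, since wild-type 1 lay below PRA transgenic 1, 2 and 4.

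Glycam1 encodes a mucin-like glycoprotein that is secreted into milk and is also made by high endothelial venules of lymph nodes. Its level (A_55_P2913740, chr15:103393187-103393246, minus strand) was 5.73, -0.29 and 8.53 in wild-type and 3.78, 5.46, -0.62 and 0.44 in PRA transgenic glands. The span of 567-fold was the widest of the 10 genes where dim glands are left out. With its dim gland included, Wap spanned 968-fold. Both rankings are of the brightest probes. The other tested Glycam1 probe, A_52_P602847, was dim in PRA transgenic 3 and spanned 8871-fold with that gland included. The lymph node and high endothelial venule markers, of which 8 of 10 were tested (not Fcer2a and Madcam1), had a mean level of 0.66 in wild-type 1, whereas it was -2.04 and -2.26 in the other wild-type and -2.42 to -1.86 in the PRA transgenic glands. In wild-type 1 the B cell gene Ms4a1 was at 1.56 and the chemokine receptor gene Ccr7 at 2.13, while Chst4, a sulfotransferase of high endothelial venules, was at -3.60 there and at -4.15 to -3.40 in the other glands. Wild-type 1 held the second highest Glycam1 level, whereas wild-type 3, the highest, had lymph node markers as low as the rest. The part of lymph node RNA in the level of wild-type 1 was not tested.

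Xdh and Btn1a1 encode xanthine dehydrogenase and butyrophilin, which bind each other on the membrane that wraps milk fat droplets at secretion, and both are also made outside lactation. Xdh (A_51_P312121, chr17:74233511-74233570, minus strand) was nearly even, with levels of 2.36, 3.02 and 2.74 in wild-type and 2.57, 2.58, 2.40 and 2.37 in PRA transgenic glands. Its span was 1.59-fold, and that of its second tested probe was 1.50-fold. The brightest Btn1a1 probe (A_55_P2029235, chr13:23549437-23549496, minus strand) had levels of 4.45, 4.70 and 4.84 in wild-type and 4.61, 4.43, 4.38 and 4.91 in PRA transgenic glands, a span of 1.44-fold.

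The Btn1a1 probes disagreed. Probe A_51_P316310, close by on the same strand (chr13:23549561-23549620), had levels of -1.41, 0.21 and 1.04 in wild-type and -1.72, -0.36, -1.56 and 1.20 in PRA transgenic glands, a span of 7.52-fold. Probe A_52_P196097 (chr13:23555734-23555793) spanned 5.73-fold with the same 2 highest glands, PRA transgenic 4 and wild-type 3. All 3 probes were well above background in Cy5 on all 7 arrays, but the Cy3 reference was so on 7, 2 and 0 arrays respectively. How evenly Btn1a1 was expressed therefore depended on the probe.

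**Figure D1:**
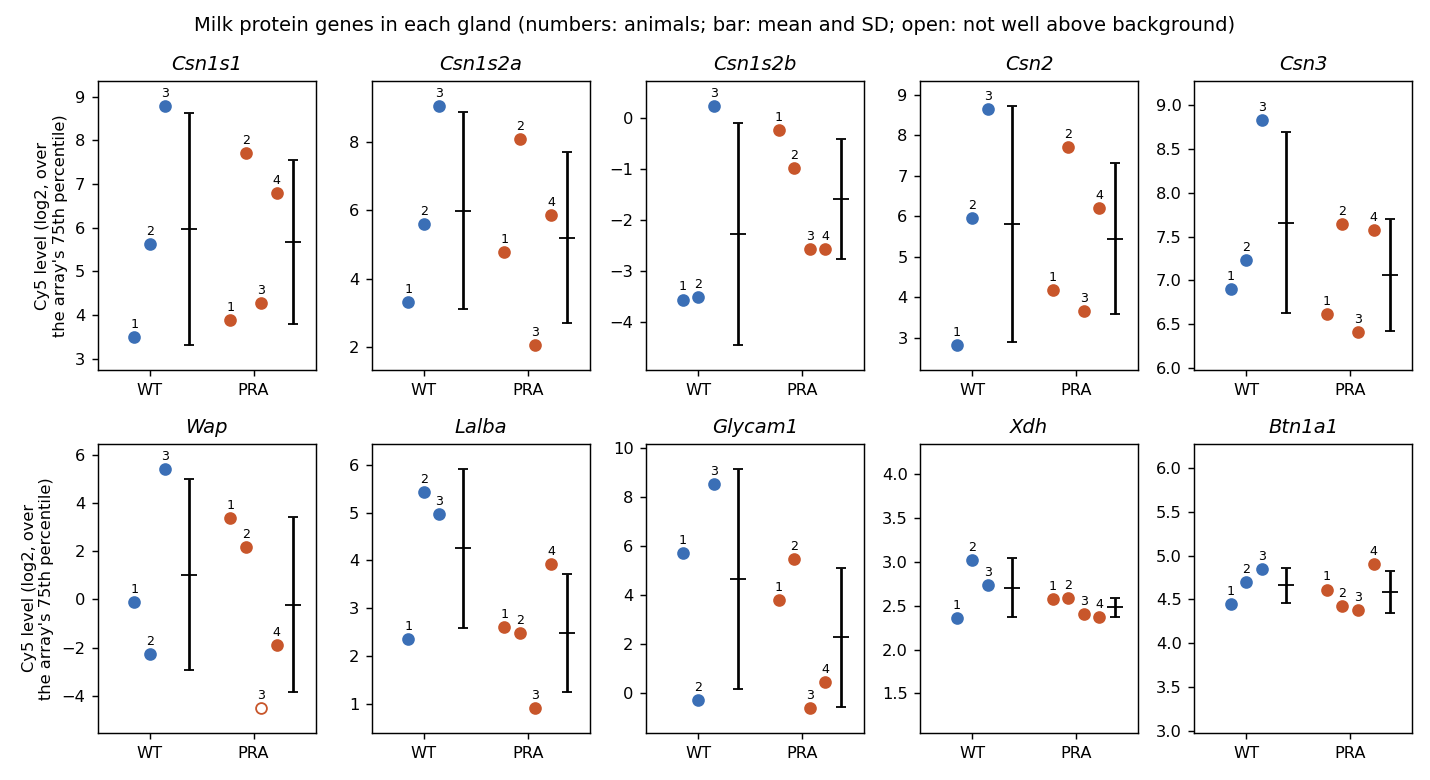
Level of each milk protein gene (log2 Cy5 over the array's 75th percentile, vertical axes differ) in 3 wild-type (WT, blue) and 4 PRA transgenic (PRA, orange) glands, with animal numbers beside the points and the mean and SD as bars. The groups overlap for all 10 genes, and for 8 of them glands of one genotype lie more than 1 log2 unit apart.

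Between the genotypes none of the 10 milk protein genes passed the threshold of an unadjusted limma P under 0.05 with a change of 1.5-fold, against 4.53% of all 34289 probes, and none had an adjusted p under 0.05, against 0.0117%. None of the 10 had an unadjusted P under 0.05 by limma or by the methods' t-test, and the lowest limma P was 0.196. The ratio was higher in PRA transgenic glands for 4 genes and lower for 6, with a median log2 fold change of -0.12 over the 10 and 0.02 over all probes tested. In the level, from Cy5 alone, no gene passed either (background 3.41%, and 0.0146% for the adjusted p), 1 gene was higher and 9 were lower, and the median log2 fold change was -0.48. This direction rested on single arrays, since without wild-type 3 the level was higher for 6 genes with a median of 0.37, and without PRA transgenic 3 it was higher for 5 with a median of 0.07. In the ratio either omission left 5 genes higher, with medians of 0.03 and 0.02. The genotypes overlapped for all 10 genes in both measures, and they did not overlap for 9.93% of all probes in the ratio and 9.65% in the level.

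Lalba had the lowest P of the 10. The mean ratio was 5.46 ± 1.07 (SD) over the 3 wild-type glands, and over the 4 PRA transgenic glands it was 4.50 ± 1.04 (SD). The difference of -0.96 had a standard error of 0.68 (limma, adjusted p = 0.726 after Benjamini-Hochberg adjustment). In the level the difference was -1.77 (standard error 0.90, limma adjusted p = 0.622). Without wild-type 1, the low wild-type gland, the log2 fold change of the ratio was -1.58 and that of the level -2.73, with unadjusted limma P of 0.0464 and 0.00989, and neither passed adjustment (adjusted p = 0.598 for the ratio). At the other end, the ratio was -0.55 without PRA transgenic 3 and -0.62 without wild-type 3, and the level was -1.18 without wild-type 2.

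Csn1s2b had the largest difference in the ratio, with 1.71 ± 2.35 (SD) over the 3 wild-type glands against 3.04 ± 0.60 (SD) over the 4 PRA transgenic glands. This is a difference of 1.33 with a standard error of 1.00 (limma adjusted p = 0.746). The 2 low wild-type glands were at 0.63 and 0.09 and wild-type 3 at 4.41, above all PRA transgenic glands. Without wild-type 3 the log2 fold change was 2.68 with a limma P of 4.82e-04 and an adjusted p of 0.411, and in the level it was 1.95 (limma P of 0.03) in place of 0.69. Without wild-type 1 it was 0.79 in the ratio and 0.05 in the level, and without wild-type 2 it was 0.52 and 0.08. For Csn1s2b the Cy3 reference was well above background on 1 array.

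The standard errors show how little the level of most other genes can say about genotype. The errors of the ratio were smaller, down to 0.15 for Xdh and Btn1a1. Csn1s1 differed by 0.13 (standard error 0.23) in the ratio and by -0.30 (1.40) in the level. Csn2 differed by 0.63 (0.74) and -0.36 (1.47), and Csn1s2a by -0.43 (0.33) and -0.80 (1.67). Csn1s1, Csn2 and Btn1a1 thus changed direction between the measures.

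Csn3 differed by -0.09 (0.18) in the ratio and -0.60 (0.52) in the level, and Wap by -0.67 (1.26) and -1.24 (2.37). The Wap values include PRA transgenic 3, whose spot was dim in both channels, and without that array they were 0.39 and 0.19. Without wild-type 3 the Wap level also turned, to 0.96. For Glycam1 the difference was -0.78 (1.28) in the ratio and -2.39 (2.26) in the level, where it became -4.86 without wild-type 2 (limma P of 0.0348, adjusted p = 0.671) and -1.85 without wild-type 1. Without wild-type 3 little of the Glycam1 difference was left, with -0.45 in the level and -0.01 in the ratio. Xdh and Btn1a1 had the smallest errors, with -0.15 (0.15) and 0.06 (0.15) in the ratio.

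**Figure D2:**
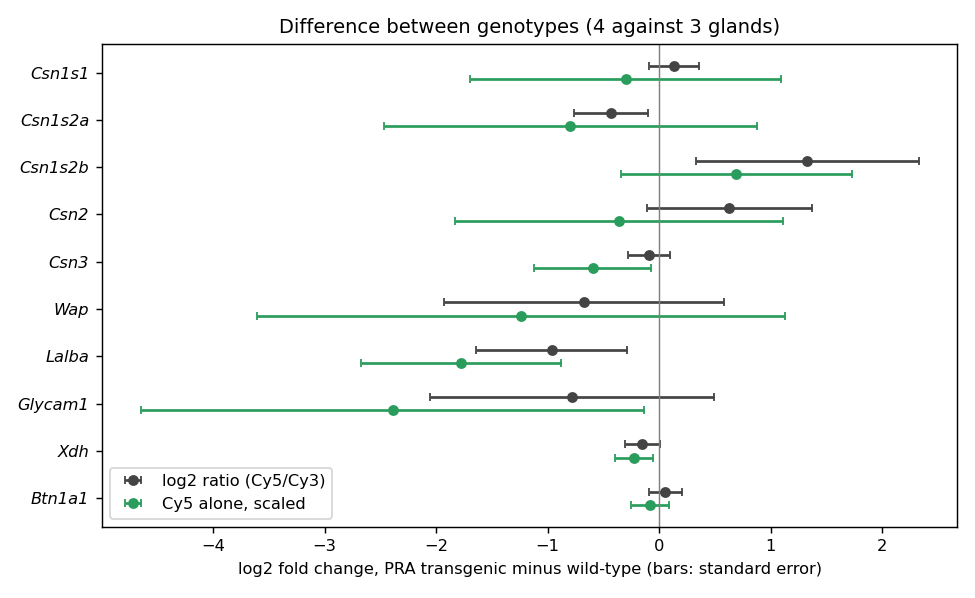
Log2 fold change, PRA transgenic minus wild-type, of each milk protein gene in the ratio of Cy5 to Cy3 (grey) and in Cy5 alone (green), with standard errors as bars. The errors of the level exceed those of the ratio for the caseins other than Csn1s2b, whose errors are nearly equal, and Csn1s1, Csn2 and Btn1a1 lie on opposite sides of 0 in the 2 measures.

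Most of the 10 genes spread more between animals than most probes did, which is given here as a description. Within genotypes the SD of the level had a median of 1.94 over the 10 genes, against 0.25 over all probes tested, and 7 of the 10 lay above the 99th percentile of 1.39. Those 7 were Csn1s1, Csn1s2a, Csn1s2b, Csn2, Wap, Lalba and Glycam1. Csn3 exceeded 95.5% of probes, whereas Xdh and Btn1a1, at 45.3% and 44.0%, lay below the median probe. In the ratio the median SD was 0.77 over the 10 genes against 0.27, and 3 genes (Csn1s2b, Wap and Glycam1) lay above the 99th percentile.

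Over the arrays the ratio of the brightest probe spanned less than its level for all members but Csn1s2b. Within genotypes the SD of Csn1s2b was 1.56 in the ratio and 1.65 in the level. For most members the Cy3 signal of the same spots moved with Cy5. On the arrays where both channels were well above background, Cy5 of Csn1s1 spanned 8.94-fold, Cy3 5.34-fold and the ratio 1.68-fold (4 arrays). For Csn1s2a these spans were 10.98-fold, 7.74-fold and 1.66-fold (4 arrays), for Wap 9.54-fold, 11.4-fold and 1.19-fold (3 arrays), and for Csn3 5.35-fold, 3.44-fold and 1.58-fold (7 arrays). On these brightest probes the ratio thus held little of the range of Cy5. Glycam1, with 567-fold in Cy5, 29.5-fold in Cy3 and 19.2-fold in the ratio, and Lalba, with 23.1-fold, 3.43-fold and 7.37-fold, kept more of it (7 arrays each). Csn2 had only 2 such arrays, with 6.38-fold in Cy5, 1.59-fold in Cy3 and 4.02-fold in the ratio. Csn1s2b had 1 such array. Over all 7 arrays, dim spots included, its ratio spanned 4.32 log2 units against 3.79 in Cy5. As a description, r between its scaled Cy5 and Cy3 was 0.14. Other tested probes were mixed. Csn3 probe A_55_P2716107, well above background in both channels on all 7 arrays, spanned 3.73-fold in the ratio and 2.47-fold in Cy5. Csn1s1 probe A_55_P2732066, with dim Cy3 on every array, spanned 69.2-fold and 47.2-fold. The remaining probes of Csn3 and Wap spanned less in the ratio than in Cy5. On the brightest probes of Csn1s1, Csn1s2a, Csn2, Csn3, Wap and Glycam1 the highest Cy3 value fell in wild-type 3, as did that of Cy5. The median probe tested spanned 0.31 log2 units in Cy3, and the reference RNA was the same on every array. Where both channels were well above background, Cy3 was 0.436% to 0.731% of Cy5 for Csn1s1 (4 arrays), 0.200% to 0.332% for Csn1s2a (4 arrays) and 0.885% to 1.40% for Csn3 (7 arrays). The same was seen outside the milk protein genes. Of 44 other probes whose level passed 4 and spanned more than 4 log2 units, 27 spanned more than 2 log2 units in Cy3, dim spots included. What made Cy3 follow Cy5 was not tested.

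**Figure D3:**
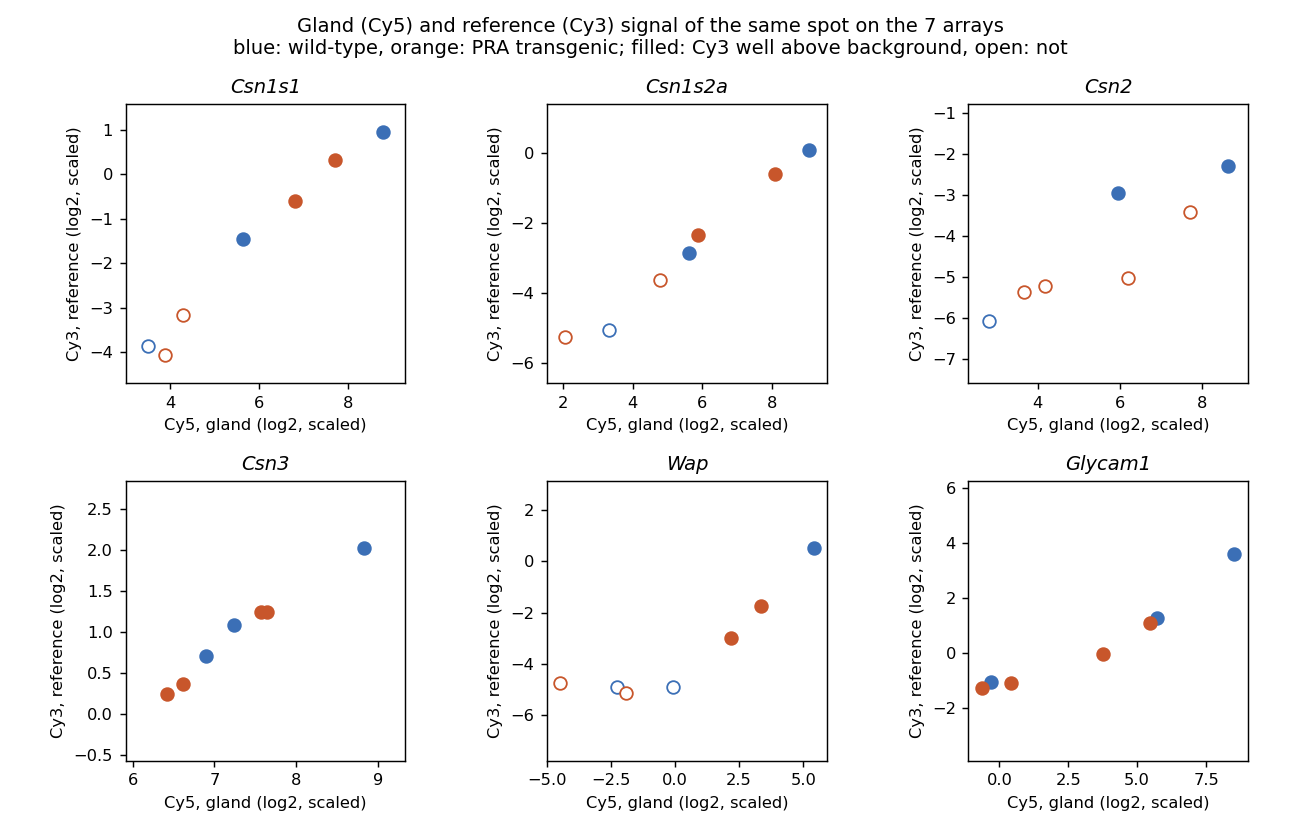
Cy3 signal of the reference against Cy5 signal of the gland in the same probe (both log2, minus the 75th percentile of that channel) for 6 milk protein genes, 1 point per array, open where Cy3 was not well above background. Both axes of a panel have one scale, and Cy3 is higher on the arrays where Cy5 is high although the reference RNA did not change.

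Beside each other across the 7 glands, the genes fell into different courses. Over the 45 pairs the Pearson r of the levels had a median of 0.53, and 44 pairs were positive. The 6 pairs among Csn1s1, Csn1s2a, Csn2 and Csn3 had the highest r, from 0.89 to 0.98, and were the pairs with an adjusted p under 0.05 for r. By Spearman's rho 3 of these 6 had an adjusted p under 0.05 and 3 did not, namely Csn1s1 with Csn1s2a (exact permutation, adjusted 0.111), Csn1s1 with Csn3 (adjusted 0.153) and Csn2 with Csn3 (adjusted 0.111). For Csn1s1 and Csn2, r was 0.98 (exact permutation p = 3.97e-04, adjusted 0.0179 over the 45 pairs) and Spearman's rho 0.96 (exact permutation p = 0.00278, adjusted 0.0417). Without wild-type 1 and wild-type 3, the glands farthest from the median, r was 0.96, and for deviations from the genotype means it was 0.98. A genotype has too few glands for an r of its own. The points share whatever differs between arrays, and these 4 genes share a chromosomal region.

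Csn1s2b lies in the same region but followed Wap more closely (r = 0.83, exact permutation p = 0.0284, adjusted 0.16; rho 0.68, exact permutation p = 0.11, adjusted 0.429) than it followed Csn2 (r = 0.55, exact permutation p = 0.194, adjusted 0.406). Without wild-type 3 and PRA transgenic 1, r with Wap was 0.50. The difference between these correlations was not tested. Wap and Glycam1 had r = 0.88 (exact permutation p = 0.0133, adjusted 0.0855) and rho = 0.86 (exact permutation p = 0.0238, adjusted 0.153). Without wild-type 3 and PRA transgenic 3 their r was 0.72, and without wild-type 1, the gland with lymph node markers, it was 0.95.

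Lalba was closest to Btn1a1 (r = 0.80, exact permutation p = 0.0367, adjusted 0.184, and rho 0.82, exact permutation p = 0.0341, adjusted 0.192). Without wild-type 2 and wild-type 3 r was 0.87. This is the brightest Btn1a1 probe, which spanned 1.44-fold, and the other Btn1a1 probes, which disagreed with it, were not compared with Lalba. The r of Lalba with Xdh was 0.74 (exact permutation p = 0.0478, adjusted 0.215). It rested on wild-type 2 and wild-type 3, since it was -0.03 without them. In the ratio none of the 45 pairs had an adjusted p under 0.05 by the exact permutation test, 5 had an unadjusted p under 0.05, and the median r was 0.33. Csn1s1 and Csn2 then had r = 0.23, while Wap and Glycam1 kept r = 0.89 (exact permutation p = 0.00536, adjusted 0.241).

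**Figure D4:**
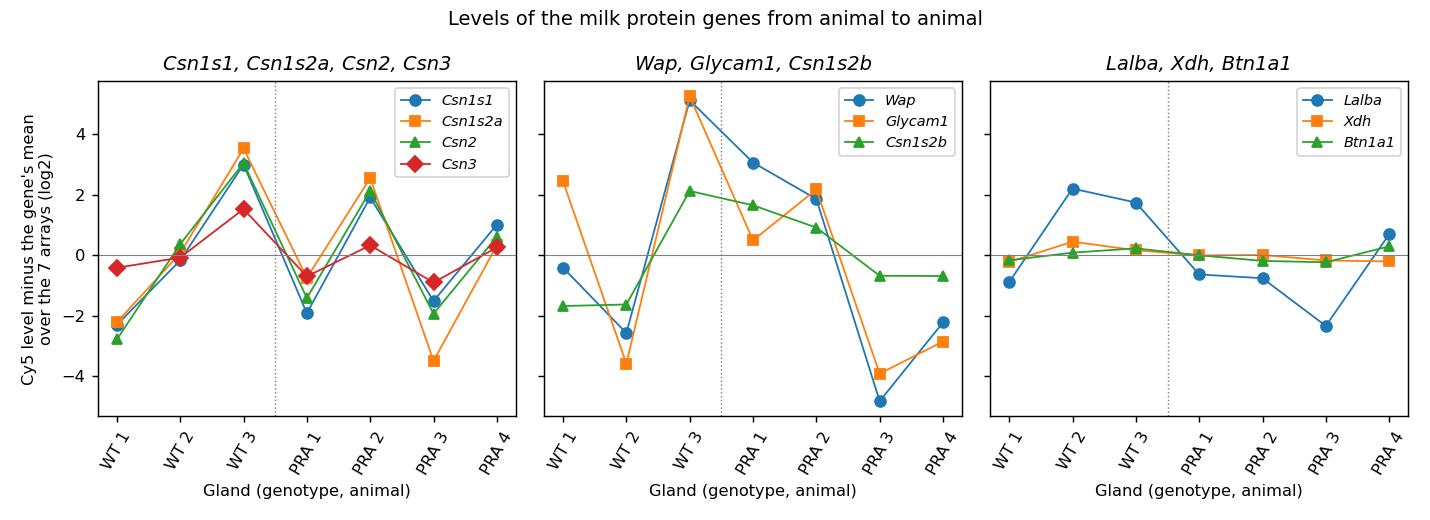
Level of each milk protein gene minus its mean over the 7 arrays (log2) in each wild-type (WT) and PRA transgenic (PRA) gland, in 3 panels of genes. The caseins other than Csn1s2b peak in WT 3 and PRA 2, whereas Wap, Glycam1 and Csn1s2b are also at or above their mean in PRA 1 and low in PRA 4.

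**Figure D5:**
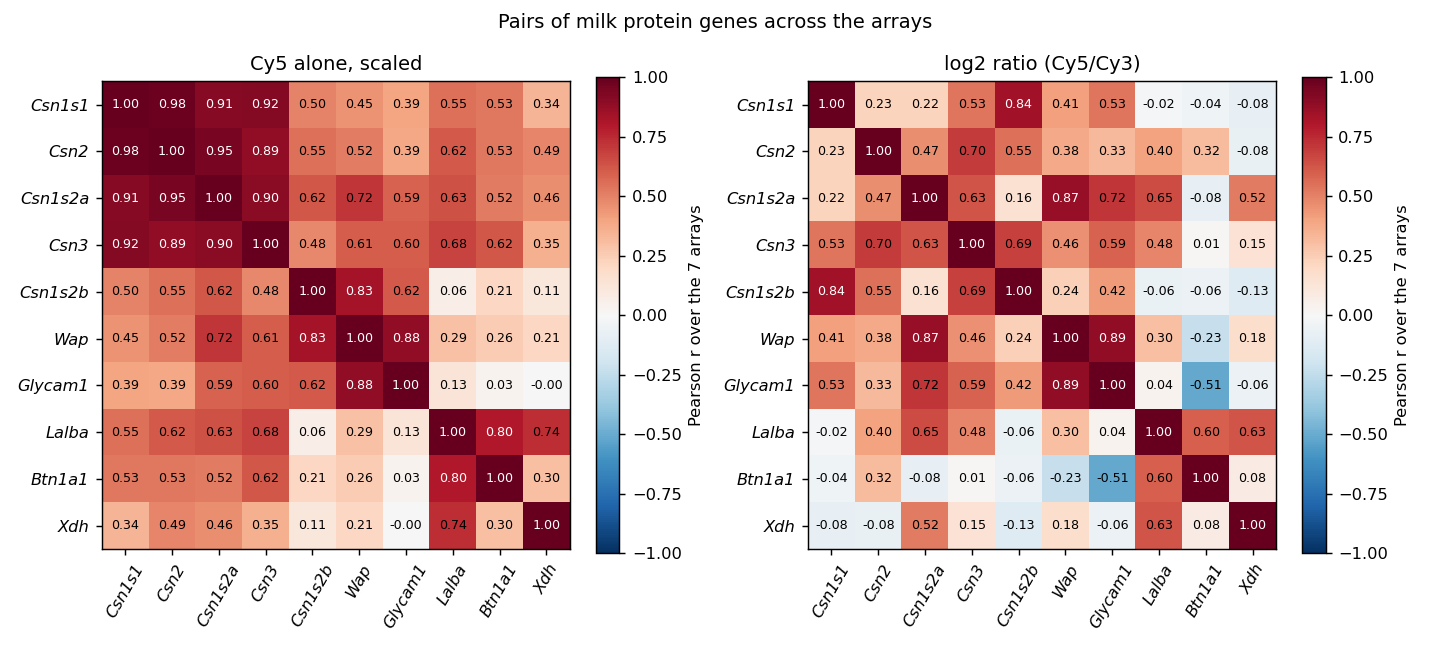
Pearson r over the 7 arrays for each pair of milk protein genes, from the level (left) and from the ratio (right), with r printed in each square. The block of Csn1s1, Csn2, Csn1s2a and Csn3 has r of 0.89 or more in the level and lower values in the ratio.

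The relations of other genes to Csn2 and Wap are given in the level alone. In the ratio Csn1s1 and Csn2 themselves had r = 0.23. Of the genes that act upstream, Elf5, a transcription factor of alveolar progenitors, had the course of the caseins in the level. Its level was 2.02, 3.59 and 5.09 in wild-type and 2.19, 4.74, 3.26 and 4.25 in PRA transgenic glands, and its r with Csn2 was 0.93 (exact permutation p = 0.00437, adjusted 0.0777 over 94 genes of 4 pathway lists; rho 0.96, exact permutation p = 0.00278, adjusted 0.087). Without wild-type 1 and wild-type 3 r was 0.85. Stat5b, with r = 0.86 (exact permutation p = 0.0145, adjusted 0.0973), spanned 1.53-fold, and Stat5a, with r = 0.78 (exact permutation p = 0.0292, adjusted 0.152), 2.58-fold.

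The receptor genes had negative r with Csn2, at -0.72 for Prlr, the prolactin receptor (exact permutation p = 0.0722, adjusted 0.261), and -0.74 for Pgr, the progesterone receptor (exact permutation p = 0.0669, adjusted 0.261). Both weakened without the same 2 glands, to -0.35 and -0.43. Elf5 had r = 0.25 with Wap (exact permutation p = 0.572, adjusted 0.961). None of these 5 regulators passed the threshold between genotypes, with log2 fold changes of the ratio of 0.39 (standard error 0.32) for Elf5, -0.15 (0.16) for Stat5b, -0.29 (0.30) for Stat5a, 0.25 (0.36) for Prlr and -0.65 (0.80) for Pgr. In the level the differences were 0.04 (0.83) for Elf5, 0.61 (0.53) for Prlr and 0.03 (0.83) for Pgr. The Cy3 reference was well above background on 5 arrays for Elf5, on 1 for Prlr and on 0 for Pgr, so that the ratio of Pgr rests on dim reference values.

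Of the 94 genes, 3 had an adjusted p under 0.05 for the r with Csn2, and they are named for that reason. Slc28a3, a nucleoside transporter, had r = 0.95 and rho = 1 (exact permutation p = 0.00139, adjusted 0.0435, and 3.97e-04, adjusted 0.0373) and spanned 13.6-fold. Muc4, a membrane mucin, had r = 0.95 (exact permutation p = 0.00139, adjusted 0.0435; rho 0.96, exact permutation p = 0.00278, adjusted 0.087) and spanned 53.4-fold. Stim1, a calcium sensor of the endoplasmic reticulum, had r = -0.95 (exact permutation p = 7.94e-04, adjusted 0.0435; rho -0.93, exact permutation p = 0.00675, adjusted 0.145) over a span of 1.59-fold. Without wild-type 1 and wild-type 3 these r were 0.90, 0.89 and -0.89. No gene of the 94 had an adjusted p under 0.05 with Wap by the exact permutation test, while 4 had an unadjusted p under 0.05. Fabp3, a fatty acid binding protein, had r = 0.91 (exact permutation p = 0.00337, adjusted 0.159) and a span of 276-fold. The cells that gave the Fabp3 signal were not tested.

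Between genotypes 6 of the 94 genes of the 4 pathway lists passed P and fold in the ratio, which is 6.38% against 4.53% of all probes, and 4 passed in the level, which is 4.26% against 3.41%. None had an adjusted p under 0.05 by limma. Each of the 6 lost its call in the ratio without at least 1 array, which was tried after seeing the data. In the prolactin pathway and alveolar regulators 1 of 29 tested genes passed. It was Socs1, a feedback inhibitor of cytokine receptors, with a log2 fold change of -0.63 (standard error 0.19, limma P of 0.0107, adjusted p = 0.421). It fell short of 1.5-fold without wild-type 1, wild-type 2, PRA transgenic 2 or PRA transgenic 3, and its level, which differed by -0.73, passed whichever array was left out. Tfap2c, a transcription factor of luminal cells, had -0.94 (0.63) in the ratio but -0.03 (0.56) in the level, with Cy3 well above background on 2 arrays, and Socs2, another feedback inhibitor, 0.48 (0.35), and neither passed. The list's median log2 fold change was -0.03.

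Among 24 other milk and secretory proteins 2 passed. Spp1, osteopontin, a phosphoprotein of milk and of macrophages, fell by 2.50 (standard error 0.92, limma P of 0.0291, adjusted p = 0.495), with levels of 5.08, 5.55 and 7.12 in wild-type and 4.40, 2.97, 1.99 and 5.31 in PRA transgenic glands. It did not pass without wild-type 2, wild-type 3, PRA transgenic 2 or PRA transgenic 3, where it ran from -2.66 to -1.88. Pthlh, which encodes parathyroid hormone related protein, fell by 1.54 (0.54, limma P of 0.0237, adjusted p = 0.473) in the ratio, and its level differed by -0.96 and did not pass. Its Cy3 was well above background on 0 arrays, and the ratio did not pass without wild-type 1 (-0.97) or PRA transgenic 1 (-1.24). Fabp3 had -1.47 (1.81) and Muc1 -0.79 (0.84). The list's median was -0.14, and without wild-type 3 it was 0.10.

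Of 20 genes of lactose synthesis and milk transport 1 passed, Slc34a2, a phosphate transporter, at -1.11 (0.41, limma P of 0.0285, adjusted p = 0.494). Its level spanned only 1.27-fold and differed by 0.01, so this difference lay in Cy3, which was well above background on 0 arrays. The ratio did not pass without wild-type 3 (-0.62) or PRA transgenic 1, 2 or 4. The water channel genes Aqp3 and Aqp5 had -1.47 (0.71) and -0.87 (0.55), Aqp3 with Cy5 well above background on 4 arrays and Cy3 on 2, and Hk2, a hexokinase, 0.41 (0.30). The list's median was 0.02.

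Of 21 genes of milk fat synthesis 2 passed, both higher, and the median log2 fold change was 0.49. Insig1, which retains the sterol sensor SCAP, rose by 0.80 (0.27, limma P of 0.02, adjusted p = 0.463), and Srebf1, a transcription factor of fatty acid synthesis, rose by 0.69 (0.27, limma P of 0.0361, adjusted p = 0.518). Acly, which supplies cytosolic acetyl-CoA, had 1.22 (1.15), Me1 0.89 (0.92) and Slc25a1 0.79 (0.72), with no call. PRA transgenic 4 stood apart in this list. The mean level of its 21 genes was 5.75, 5.28 and 5.54 in wild-type and 6.29, 6.01, 6.44 and 4.82 in PRA transgenic glands, so that PRA transgenic 4 lay below all wild-type glands and the other 3 above them. Without PRA transgenic 4, 12 of the 21 passed in the ratio, all higher, with a median of 0.69 and no adjusted p under 0.05 by limma. In that setting 2334 of the 34289 probes passed. Each other single omission left 0 or 1 gene past the threshold in the ratio, with medians of 0.26 to 0.70. PRA transgenic 4 was set apart by the levels of these same genes, so the count without it is a description. Insig1 did not pass without wild-type 1 or wild-type 3, and Srebf1 passed only without PRA transgenic 4 among the 7 omissions. Adipocytes express these genes too, and the mean level of the 8 adipocyte markers was 6.03 to 6.69 in wild-type and 5.92 to 6.92 in PRA transgenic glands. The part of fat tissue in this list was not tested.

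The caseins lie in one stretch of chromosome 5, and most probes of other genes in and around it were dim. Between the first and the last casein probe (chr5:88103550-88361508 of mm9, 258 kb) lay 6 probes of 5 other genes, and 1 of these probes, of Gm7337, was well above background on any array. Within 250 kb on either side and between, 14 of 18 probes of other genes were not well above background on any array. On a single array 56.7% to 66.2% of all probes were well above background in Cy5. The probes of Ugt2a1 and Smr2 were the 2 tested, and that of Ugt2a1 was well above background on 7 arrays. The courses of these neighbours were not compared with those of the caseins. Csn2 is on the minus strand and the other caseins on the plus strand. Csn3 lies at the far end of the stretch, beyond the 6 probes of the 5 other genes inside it.

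Over 16819 named genes, those whose ratio was most like the mean standardized ratio of the 10 members across the 7 arrays were Spa17 (r = 0.98), Rian (0.95), Zfp251 (0.93), Mta3 (0.93), Zbtb42 (0.93), 0610009L18Rik (0.93), Lce3b (0.93), Dcps (0.92), Prr9 (0.92) and Bora (0.91). Their own ratios spanned 0.24 to 2.19 log2 units. From the level in place of the ratio, only Dcps stayed among the 10 most like, and the list then held Lao1, an amino acid oxidase of milk, at r = 0.97 with a span of 7.85 log2 units. With 7 arrays and this many genes, such values are a description of these arrays.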

How the data were processed

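Gland RNA of 7 mice, 3 of them wild-type and the other 4 PRA transgenic, was hybridized to Agilent two-color arrays. The authors deposited, for each array, scanner output whose processed Cy5 and Cy3 intensity had been background-subtracted and dye-normalized by Agilent Feature Extraction (version 12.0 per the submitters' processing notes), and a series table of log2 ratios centered on the arrays. Dim signals in the deposited intensity columns are surrogate values, which compress differences near background. No dyes were swapped.

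Control and outlier spots were left out, spots of a probe were averaged, and the log2 of Cy5 over Cy3 was compared between genotypes over 34289 probes (limma 3.58.1, functions lmFit and eBayes, R 4.3.3), with Benjamini-Hochberg adjustment over all of them. A call is an unadjusted P under 0.05 with 1.5-fold, the wider of the thresholds the study used. Precision is limited by having 7 arrays. Correlations over the 7 arrays used all 5040 permutations, two-sided. The steps were tested on simulated data.

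The members, the gene lists and the tests were chosen with earlier results of these data known. Named are all members, the 5 regulators Prlr, Stat5a, Stat5b, Elf5 and Pgr, up to 4 genes of each pathway list with the largest change of the ratio and the 10 genes most like the members, and other genes were named after their values were seen. Relations of list genes to Csn2 and Wap, the span of Cy5, the comparison of Cy3 with Cy5 and the neighbouring genes were chosen after seeing the data. Gene names were updated through RefSeq by accession for 33903 probes, by symbol for 9458 and by older symbol for 488. Promoters are from RefSeq, GRCm38.p6, and probe positions are those of the files, mm9.

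Alternatives were normexp (offset 50) with loess, the series table, Cy5 alone scaled to the 75th percentile or unscaled, quantile normalization, leaving the filter out or making it stricter (both channels, all arrays), the methods' t-test, an intensity trend, a block for the replicate number, omission of single arrays, and for a gene the median of its tested probes.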

Additional observations from a re-analysis of the deposited data

Results flagged for a closer look

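The ratio of Csn1s1 in PRA transgenic 1 was 7.98, and in the other PRA transgenic glands it was 7.40, 7.47 and 7.42. The gap to the nearest value was 0.877 of the whole range of the 4 arrays, past Dixon's 95% limit. In that gland the Csn1s1 level was 3.88, the lowest of the 4, and the Cy3 reference of the probe was not well above background. Chance marks about 1 in 20 groups, and 1 of 20 groups examined was marked.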

How the results depend on the processing

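None of the 10 genes passed P and fold under the alternatives other than the omission of single arrays, and no gene had an adjusted p under 0.05 under any alternative. The stricter filter left 5 of the genes. Leaving out single arrays gave 0 to 1 genes past P and fold in the ratio, and 0 to 1 in Cy5 alone, which was added after seeing the data. The one gene was Csn1s2b without wild-type 3, Lalba without wild-type 1 or, in Cy5, without PRA transgenic 4 (-2.26), and Glycam1 in Cy5 without wild-type 2. The median log2 fold change of -0.12 ran from -0.21 to 0.03 without single arrays, and from -1.67 (without wild-type 1) to 0.37 (without wild-type 3) in Cy5 alone.

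Csn1s1 changed sign with normexp and loess (-0.061), in Cy5 scaled (-0.30) or unscaled (-0.51) and as the median over its probes (-0.29). Csn2 changed sign with normexp and loess (-0.049) and in Cy5 scaled (-0.36) or unscaled (-0.57). Btn1a1 changed sign in Cy5 scaled (-0.079) or unscaled (-0.29), with the replicate block (-0.042) and as the median over its probes (-0.32). Without single arrays the ratio of Csn1s1 ran from -0.034 to 0.34, of Btn1a1 from -0.042 to 0.12, of Csn2 from 0.29 to 1.30, of Csn3 from -0.21 to 0.12, of Wap from -1.41 to 0.39, of Csn1s2b from 0.52 to 2.68, of Lalba from -1.58 to -0.55 and of Glycam1 from -2.10 to -0.0085. In Cy5 the ranges were -1.54 to 1.11 for Csn1s1, -2.13 to 0.73 for Csn1s2a, -1.86 to 1.05 for Csn2, -0.98 to -0.0084 for Csn3, -2.88 to 0.96 for Wap, 0.052 to 1.95 for Csn1s2b, -2.73 to -1.18 for Lalba, -4.86 to -0.45 for Glycam1 and -0.19 to 0.01 for Btn1a1. The cause was not tested.

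The median r over the pairs was 0.33 in the ratio, 0.53 in Cy5 scaled, 0.54 in Cy5 unscaled and 0.47 with normexp and loess, and without single arrays it ran, in the ratio, from 0.194 (without wild-type 3) to 0.433 (without wild-type 1). Over all probes the count of 1552 became 326 with normexp and loess, 468 of 24665 with the stricter filter, 3367 of 56605 with no filter, 996 with the methods' t-test (1 after Benjamini-Hochberg adjustment) and 2334 without PRA transgenic 4. Same-numbered animals of the genotypes did not deviate together (r of 0.10, -0.30 and 0.04). With so few animals this cannot show whether the numbers pair them, and the labels do not say. With the number as a replicate block the median log2 fold change was -0.11, no gene passed and 2444 probes did. PRA transgenic 4 has no wild-type partner and adds nothing to that fit, whose fold changes are those without it. With 3 glands against 4, dim Cy3 spots limit the ratios of Csn1s2b, Csn2, Wap, Csn1s1 and Csn1s2a.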
